A study of Mus musculus with 25 samples.

Results

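Chromatin accessibility was described at the receptor genes of the common gamma-chain cytokine family, Il7r, Il2ra, Il2rb, Il4ra, Il15ra and Il21r, and at Il2, a ligand gene of the family. A peak of the deposited count table was taken as a member when its midpoint lay nearest to the start of 1 of these 7 genes among all protein-coding genes, or inside the body of 1 of them. This gave 20 of the 13527 peaks: 7 at Il21r, 5 at Il7r, 3 at Il4ra, 2 each at Il2ra and Il15ra, 1 at Il2rb and 0 at Il2, so that Il2 could not be measured. Peaks are named by the gene and by the distance in bp of the peak midpoint from the gene start, positive into the gene. The measurements are 25 ATAC-seq libraries, an assay in which a transposase cuts accessible DNA, from CD8+ T cells of spleen and lymph nodes of female C57BL/6 mice. The cells, called T_FGS, were sorted with a tetramer of an OVA peptide on Kb, an antigen that the paternal strain 2W-OVA.BALB/c carries and that a graft and a fetus therefore shared. Naive mice (3 libraries) had met neither, Sensitized mice (4 libraries) had rejected an allogeneic skin graft, N+P mice had a semi-allogeneic pregnancy without a graft, and S+P mice had the graft and then the pregnancy. Post-partum cells were sorted on the inhibitory receptor PD1 and the ectoenzyme CD73 into N+P C1 (PD1-, 3 libraries), N+P C5 (PD1+CD73+, 3), S+P C4 (PD1-, 4), S+P C5 (PD1+CD73+, 4) and S+P C7 (PD1+CD73-, 4). Column names imply, but no label states, that subsets with the same replicate number within N+P or within S+P came from the same mice. The labels of the Naive and Sensitized libraries name no PD1 or CD73 subset.

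Receptors of this family pair a cytokine-specific chain with the shared gamma chain, which is encoded by Il2rg, and pass their signal through the kinases JAK1 and JAK3 to STAT factors. Il7r encodes the alpha chain of the IL7 receptor, which naive and memory T cells need to survive and which is shut off in effector and exhausted cells. Il2ra encodes the high-affinity chain of the IL2 receptor, Il2rb the signalling chain shared by the IL2 and IL15 receptors, and Il15ra the chain that presents IL15 to other cells. Il4ra and Il21r encode the specific chains of the IL4 and IL21 receptors.

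Sequences are shown for 6 peaks away from gene starts: the called peak of smallest adjusted p at each of Il7r, Il15ra, Il4ra and Il21r, a further closed Il7r peak, and an intronic Il21r peak that was lowest in S+P C5 and called in no comparison. The windows lie on the plus strand of GRCm39, 300 bases centred on the peak midpoint, at chr15:9533274-9533573 and chr15:9574975-9575274 between Il7r and its upstream neighbour Spef2, at chr7:125160446-125160745 in an intron of Il4ra, at chr7:125196242-125196541 between Il4ra and Il21r, and at chr7:125229483-125229782 in an intron of Il21r. The Il15ra -12072 window is 174 bases long, chr2:11698005-11698178, because it begins where the last exon of Il2ra ends. The windows Il7r -44863 and Il21r +27032 were added after their values were seen. Capitals mark matches to 8 short letter strings searched on both strands: STAT (TTCNNNGAA), AP-1 (TGANTCA), RUNX (TGTGGTT), ETS (AGGAAGT), NFAT (TGGAAAA), T-box (GGTGTGA), TCF/LEF (CTTTGAT) and FOXO (GTAAACA).
Il7r -3162: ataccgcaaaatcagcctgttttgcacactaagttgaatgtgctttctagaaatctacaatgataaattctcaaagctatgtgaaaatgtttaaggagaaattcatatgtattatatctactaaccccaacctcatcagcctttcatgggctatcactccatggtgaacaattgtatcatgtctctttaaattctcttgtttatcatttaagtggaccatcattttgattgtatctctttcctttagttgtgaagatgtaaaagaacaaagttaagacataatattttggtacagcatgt
Il7r -44863: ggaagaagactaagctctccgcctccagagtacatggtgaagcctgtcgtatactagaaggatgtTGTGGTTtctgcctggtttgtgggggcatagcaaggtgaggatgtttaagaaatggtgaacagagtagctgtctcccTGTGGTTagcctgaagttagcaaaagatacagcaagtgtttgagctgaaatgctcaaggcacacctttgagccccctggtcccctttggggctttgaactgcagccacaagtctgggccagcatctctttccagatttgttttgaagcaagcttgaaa
Il15ra -12072: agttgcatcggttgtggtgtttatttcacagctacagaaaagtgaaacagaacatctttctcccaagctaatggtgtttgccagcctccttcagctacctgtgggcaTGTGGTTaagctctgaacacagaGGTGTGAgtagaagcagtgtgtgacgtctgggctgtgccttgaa
Il4ra +9517: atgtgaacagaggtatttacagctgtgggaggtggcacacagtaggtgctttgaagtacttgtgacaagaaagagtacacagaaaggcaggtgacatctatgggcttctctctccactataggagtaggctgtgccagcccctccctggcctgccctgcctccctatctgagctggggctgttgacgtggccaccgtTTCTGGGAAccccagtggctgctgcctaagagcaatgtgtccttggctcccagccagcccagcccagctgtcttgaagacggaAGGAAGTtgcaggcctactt
Il21r -6209: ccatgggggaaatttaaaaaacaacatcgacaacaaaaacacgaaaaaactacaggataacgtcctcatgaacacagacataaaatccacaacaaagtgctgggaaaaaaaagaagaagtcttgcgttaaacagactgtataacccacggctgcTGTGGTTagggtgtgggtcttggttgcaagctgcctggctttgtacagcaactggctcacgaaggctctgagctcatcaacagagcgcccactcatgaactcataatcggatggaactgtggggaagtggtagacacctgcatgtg
Il21r +27032: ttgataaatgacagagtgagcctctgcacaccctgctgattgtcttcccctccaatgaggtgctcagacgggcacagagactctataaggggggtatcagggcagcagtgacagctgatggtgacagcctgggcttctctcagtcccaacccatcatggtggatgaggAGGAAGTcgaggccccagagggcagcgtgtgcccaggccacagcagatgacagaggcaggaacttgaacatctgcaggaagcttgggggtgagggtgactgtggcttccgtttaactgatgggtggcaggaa

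The Il7r -3162 window held none of the 8 strings, and its GC content of 32.7% compares with a median of 48.7% over peaks that were not promoter peaks. RUNX strings were found in the windows of 5 of the 20 member peaks, which are Il7r -44863 and Il7r -50991 with a pair of matches each, Il15ra -12072, Il21r -6209 and Il21r +32349. None of these 5 was a promoter peak, and the RUNX string stood in the windows of 10.8% of all peaks and 20.1% of those that were not promoter peaks. ETS strings were found in 3 member windows (13.8% of all peaks), STAT in 2 (7.73%), AP-1 in 2 (9.20%), T-box in 2 (5.12%), FOXO in 2 (3.33%), NFAT in 1 (4.87%) and TCF/LEF in 0 (4.07%). With whole peaks in place of the windows, the RUNX string was in 45% of member peaks and 25.2% of all peaks. The other whole-peak shares, members against all, were 35% and 32.8% (ETS), 30% and 24.6% (STAT) and 25% and 25.7% (AP-1). They were 25% and 16.0% (T-box), 15% and 12.6% (FOXO), 10% and 18.7% (NFAT) and 15% and 13.7% (TCF/LEF). Promoter peaks were rarer among members than among all peaks, and whole-peak shares without promoter peaks were not computed. No string overlapped another in the printed windows. A match is a run of letters only, and binding was not measured.

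Counts per library over all peaks ran from 2430890 to 25419715, with the fewest in S+P C4 replicate 1 and the most in S+P C5 replicate 1. By correlation with group means, 10 of the 25 libraries stood nearer to another group than to their own, among them Naive replicate 3 (nearest N+P C1), Sensitized replicate 1 (nearest S+P C4), Sensitized replicates 3 and 4 (nearest N+P C5) and S+P C4 replicate 1 (nearest N+P C5), so results against Sensitized are also given without replicates 3 and 4 together where that changed a call or lost an adjusted p under 0.1. Of 9 CD8 T cell marker genes, 6 had a peak at their start (Cd8a, Cd3e, Cd3d, Cd3g, Cd5 and Lck), whereas 0 of 6 B cell genes, 0 of 3 NK cell genes, 0 of 6 myeloid genes and 0 of 3 CD4 and Treg genes had one. Of 4 erythroid genes, 1 had a peak at its start, Tfrc, the transferrin receptor gene, which dividing T cells also use. The summed normalized count of the peaks nearest to the CD8 genes was 9813 to 12037 in Naive, 8890 to 9427 in N+P C1, 9369 to 9730 in N+P C5, 9128 to 14447 in Sensitized, 10623 to 13806 in S+P C4, and for the PD1+ subsets 11908 to 14920 (S+P C5) and 12289 to 15225 (S+P C7). The single peak nearest to a myeloid gene summed to 76.3 to 155 in the Naive and N+P groups, 125 to 389.9 in Sensitized and 160 to 417 in the S+P groups. The 9 peaks nearest to NK genes summed to 4847 to 5165 in Sensitized, 4480 to 5260 in S+P C5, 5284 to 6077 in S+P C7, and 4936 to 6498 in the other groups. The 2 peaks nearest to CD4 and Treg genes summed to 447 to 633 in the Naive and N+P groups and to 236 to 531 in Sensitized and the S+P groups, and the 2 nearest to erythroid genes to 898 to 1201 over all groups. The part of these levels in the results was not tested. In bulk samples, a smaller share of cells with an open site and less opening per cell cannot be told apart.

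Of the 20 member peaks, 6 were promoter peaks, that is, no more than 1000 bp from a transcript start of their gene, against 56.7% of all peaks. Their median length was 890 bp, and that of all peaks 963 bp. In the deposited peak lists of the 7 groups, 15 members were listed for Sensitized (71.1% of all peaks were) as well as for S+P C5 (82.9%), 14 in Naive (62.7%), 12 in N+P C5 (62.2%), 10 in N+P C1 (62.9%), 8 in S+P C7 (64.0%) and 2 in S+P C4 (27.0%). Only Il2ra +10678 and Il4ra +29478 stood in every list, as 24.0% of all peaks did. A peak was called different between groups at an adjusted p under 0.1 (DESeq2, over all peaks) with a log2 fold change over 0.9 in size. Between Sensitized and Naive, 1 member opened and 1 closed, where 7.22% of all peaks opened and 1.4% closed. From Sensitized to S+P C4, 1 member closed (0.296% of all peaks), from Sensitized to S+P C5 1 closed (3.67%), and from Sensitized to S+P C7 5 closed and 0 opened (8.03% and 3.84%). Between the C5 subsets of S+P and N+P mice, 2 members were more and 3 less accessible in S+P (10.3% and 6.97%). Among the S+P subsets, C5 differed from C4 in 1 opened and 1 closed member (3.12% and 2%), and C7 from C5 in 1 closed member (2.11%). Among peaks that were not promoter peaks, which 14 members were, 16.4% closed from Sensitized to S+P C7, and all 5 closed members were of this kind. The median log2 fold change of the 20 members was -0.22 in that comparison and 0.00 over all peaks, and -0.30 against -0.01 from Sensitized to S+P C5, where 11 members passed adjusted p under 0.1 (32.9% of all peaks) and 10 of these were lower in S+P C5. Without Sensitized replicates 3 and 4, 6 members passed there (11.2% of all peaks). The heat map of fold changes shows every member in every comparison.

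**Figure D1:**
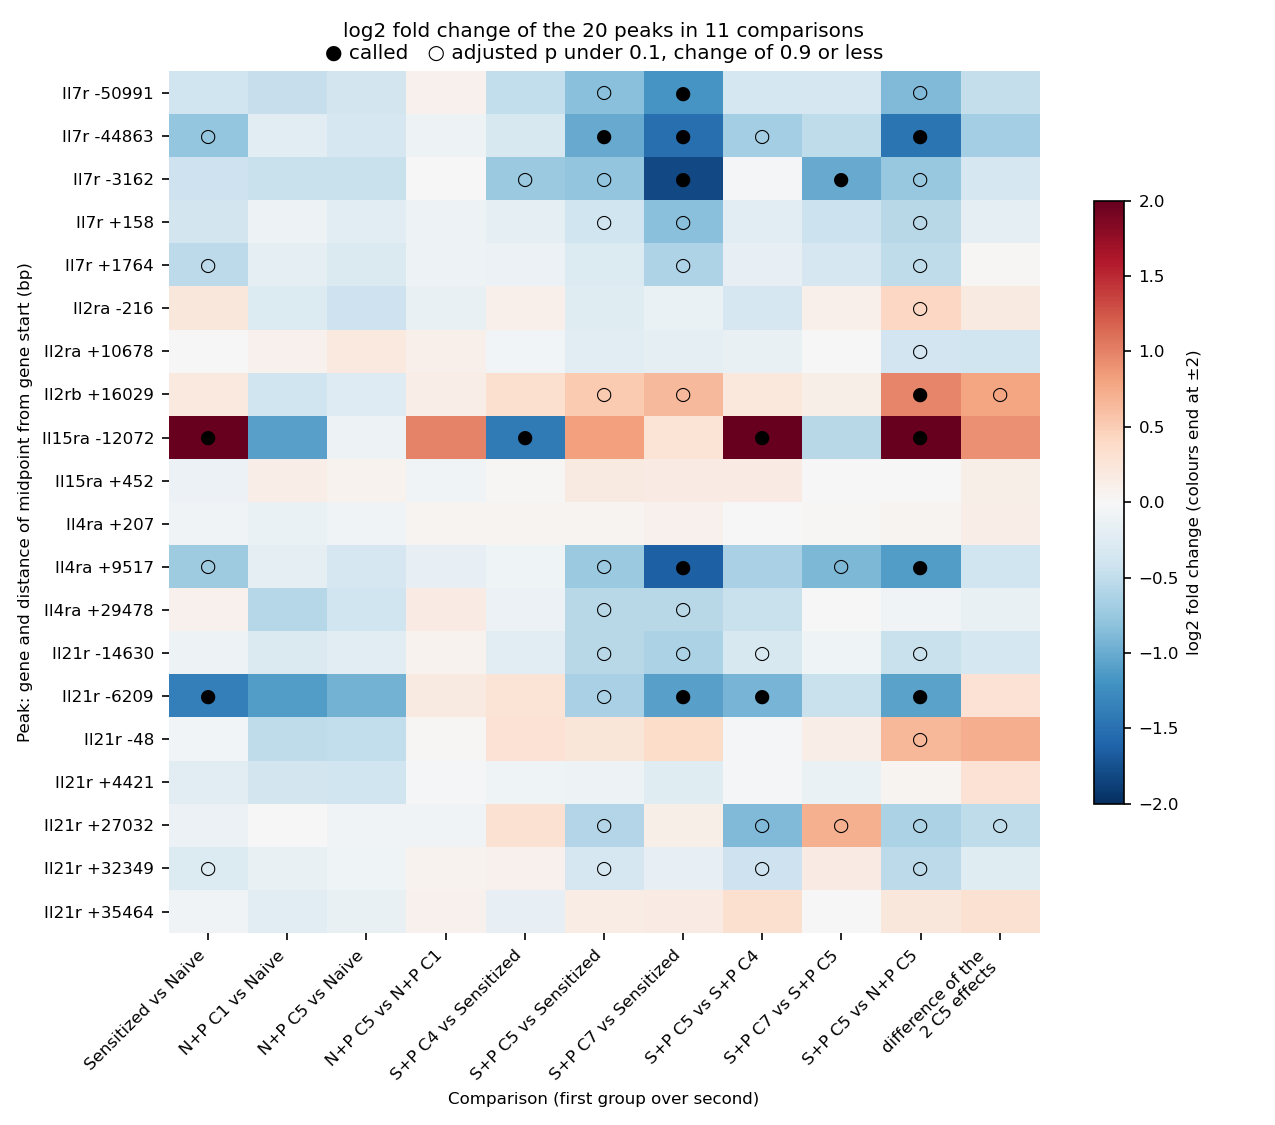
log2 fold change (colour, first group over second) of the 20 peaks (rows) in 10 pairwise comparisons and in the difference of the pregnancy effects on C5 cells (columns); filled circles mark called peaks and open circles an adjusted p under 0.1 with a smaller change. The 5 Il7r rows are blue in every comparison of an S+P group with Sensitized, palest for S+P C4. The largest increase is 3.44, at Il15ra -12072, and the colour scale ends below that value, so the reddest cells are not ranked by colour.

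The alpha chain gene of the IL7 receptor, Il7r, carried the 3 members with the smallest p from Sensitized to S+P C7. Its 5 peaks were a promoter peak (Il7r +158), an intronic peak (Il7r +1764), 2 peaks between Il7r and its neighbour Spef2 (Il7r -3162 and Il7r -44863), and a peak in an intron of Spef2 (Il7r -50991). For all 5, the mean was highest in Naive and lowest in S+P C7, and all 5 fold changes were below 0 in each comparison of an S+P subset with Sensitized. Without Sensitized replicates 3 and 4 this no longer held for S+P C4 at Il7r +1764 (0.22), Il7r -44863 (0.16) and Il7r +158 (0.01), nor for S+P C5 at Il7r +1764 (0.07), and it held at all 5 for S+P C7. Between Sensitized and S+P C7, 3 of the 5 closed, and Il7r +158 and Il7r +1764 passed adjusted p with a smaller change. Adjusted p under 0.1 was reached there by 7150 of all 13527 peaks.

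At Il7r -3162, the normalized count (reads in the peak over the library's size factor) was 902, 737 and 614 in Naive, 414, 635 and 603 in N+P C1, and 431, 593 and 635 in N+P C5. It was 507, 563, 544 and 632 in Sensitized, 344, 428, 328 and 251 in S+P C4, whereas S+P C5 had 355, 240.3, 440.5 and 264 and S+P C7 had 147, 106, 220.4 and 173. Every S+P library lay below every Sensitized library, and every S+P C7 library below every other library of the series. Groups without overlap made up 22.7% of all peaks between Naive and Sensitized, 3.96%, 14.7% and 25.5% between Sensitized and S+P C4, C5 and C7, 62.9% between both C5 subsets, 11.7% between S+P C4 and C5, and 11.5% between S+P C5 and C7. The mean fell from 562 ± 52.6 (SD, n = 4) in Sensitized to 161 ± 48.1 (SD, n = 4) in S+P C7, which is -1.80 on the log2 scale (SE 0.22, 95% interval -2.23 to -1.37, DESeq2 adjusted p = 5.8e-14). S+P C4 and S+P C5 differed from Sensitized by -0.74 (SE 0.22, adjusted p = 0.031) and -0.78 (SE 0.21, adjusted p = 0.0033), short of the fold threshold, and the first of these was -0.67 (adjusted p = 0.15) without Sensitized replicates 3 and 4. These subsets differed from each other by -0.05 (SE 0.22, adjusted p = 0.96). The same peak closed from S+P C5 to S+P C7 by -1.01 (SE 0.22, adjusted p = 5.0e-04), and was lower in C7 in 4 of 4 replicate numbers. Dropping S+P C7 replicate 2 made this fold change -0.87, and leaving out replicate 3 of S+P C5 made it -0.84, both short of the fold threshold. With that C5 replicate left out, the change from Sensitized to S+P C5 was -0.96 and from N+P C5 to S+P C5 -0.94, and with N+P C5 replicate 1 left out the latter was -0.91, which would be calls.

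At Il7r -44863, the normalized count was 1178, 1039.5 and 1038 in Naive, 707, 932 and 1142 in N+P C1, and 611, 951 and 1027 in N+P C5. It was 406, 495, 774 and 853 in Sensitized, 664, 611, 385 and 369.5 in S+P C4, whereas S+P C5 had 423, 233, 317 and 279.9 and S+P C7 had 243, 201, 234 and 209.8. The Sensitized libraries spread widely here, with replicates 3 and 4, which stood nearest N+P C5 over all peaks, above replicates 1 and 2. The peak closed from Sensitized to S+P C7 by -1.51 (SE 0.24, adjusted p = 1.3e-08) and was lower in S+P C5 than in N+P C5 by -1.45 (SE 0.26, adjusted p = 1.9e-07). The groups did not overlap in either comparison. It also closed from Sensitized to S+P C5 by -1.01 (SE 0.24, adjusted p = 4.9e-04), where the groups overlapped. That change was -0.895 without Sensitized replicate 3, -0.83 with replicate 4 left out instead, -0.89 when replicate 2 of S+P C5 was dropped, and -0.51 (adjusted p = 0.22) without Sensitized replicates 3 and 4 together. Against Naive, Sensitized cells differed by -0.78 (SE 0.25, adjusted p = 0.018), and by -1.27 without Sensitized replicates 3 and 4 and -0.96 without Sensitized replicate 4 alone, which would be calls.

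At Il7r -50991, the normalized count was 566, 677, 629.5 and 718 in Sensitized and 213, 233, 311 and 381 in S+P C7, with no overlap. The log2 fold change was -1.18 (SE 0.20, adjusted p = 1.6e-07). S+P C4 held 422, 505, 443 and 472 and S+P C5 396, 202, 459.8 and 381, and the change from Sensitized to S+P C5 was -0.84 (SE 0.20, adjusted p = 5.9e-04). From N+P C5, with 566, 761 and 667, to S+P C5 it was -0.88 (SE 0.22, adjusted p = 2.7e-04). Without S+P C5 replicate 3, these changes were -0.97 and -1.01, past the fold threshold. The second was also past it when N+P C5 replicate 1 (-0.98), S+P C5 replicate 1 (-0.92) or S+P C5 replicate 4 (-0.902) was left out.

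The Il7r promoter peak, Il7r +158, had smaller contrasts. Its normalized count was 387, 302 and 321 in Naive, 237, 222, 288 and 295 in Sensitized, and 125, 112, 177 and 169.7 in S+P C7. From Sensitized to S+P C7 the log2 fold change was -0.83 (SE 0.16, adjusted p = 4.4e-06) with no overlap, and it was -0.92 without S+P C7 replicate 3 and -0.93 without S+P C7 replicate 4. Its change from Sensitized to S+P C5 was -0.40 (SE 0.16, adjusted p = 0.045), and -0.22 (adjusted p = 0.57) without Sensitized replicates 3 and 4. The intronic peak Il7r +1764 fell from 408, 376, 588 and 603 in Sensitized to 269, 196, 437 and 390.3 in S+P C7, or by a log2 value of -0.61 (SE 0.21, adjusted p = 0.0097) with overlapping groups, which was -0.27 (adjusted p = 0.43) when Sensitized replicates 3 and 4 were left out. From N+P C5 to S+P C5, Il7r +158 differed by -0.56 (adjusted p = 0.0035) and Il7r +1764 by -0.51 (adjusted p = 0.039), so that all 5 Il7r peaks passed adjusted p in this comparison, as 63.8% of all peaks did.

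**Figure D2:**
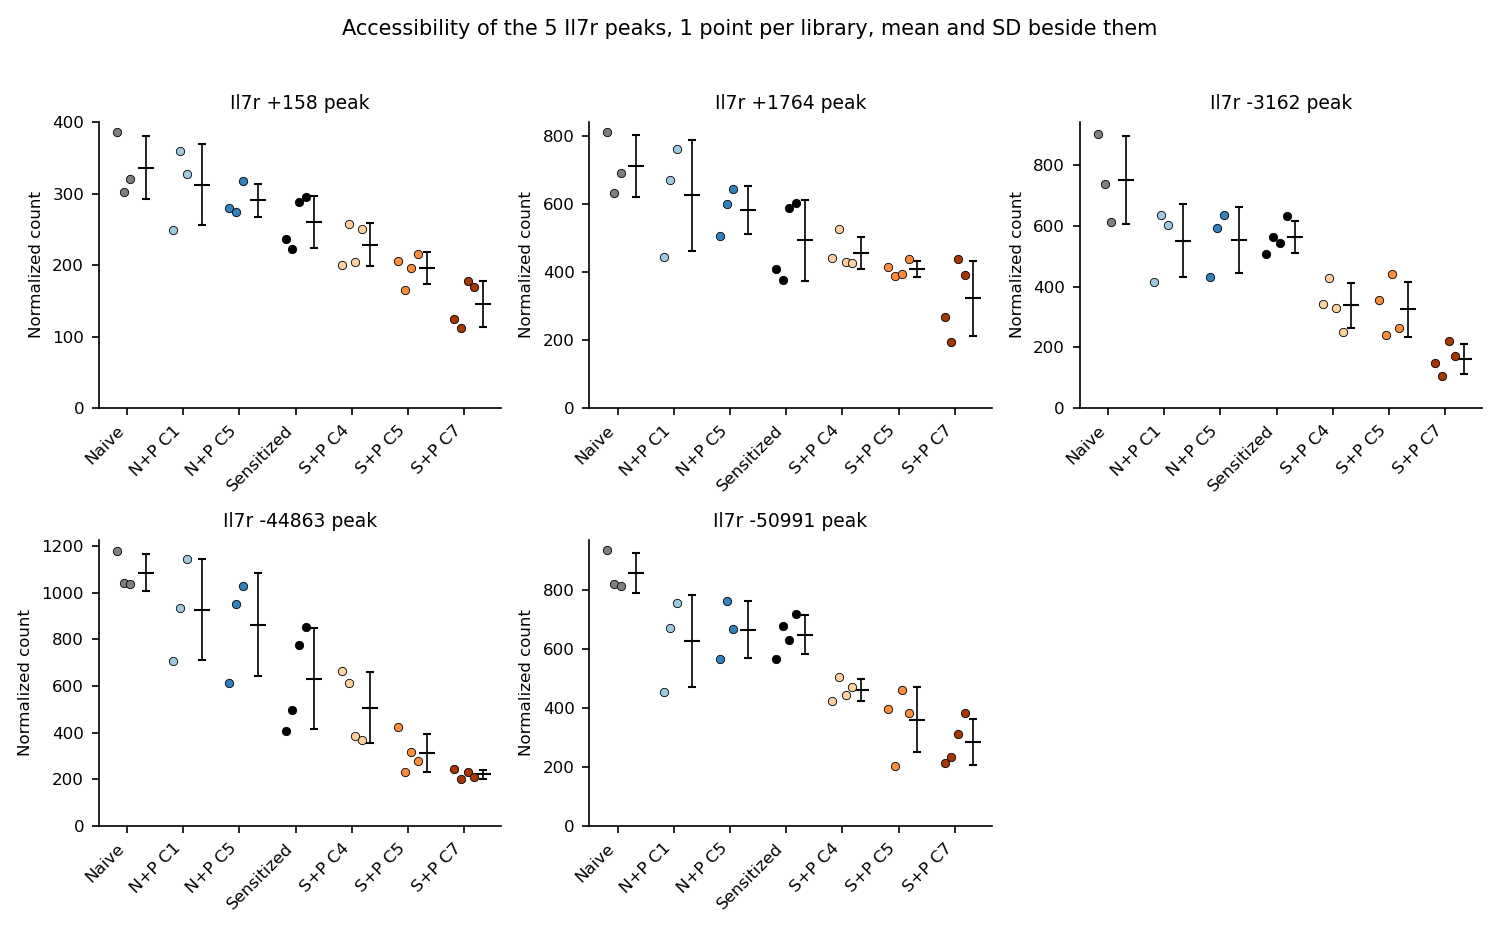
Normalized count (vertical axes, from 0) of the 5 Il7r peaks in each library of the 7 groups (horizontal axes); points are libraries and the bar beside them is the mean ± SD. The S+P C7 points are lowest at Il7r -3162, between 106 and 220.4, and the Naive points highest on average in every panel.

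Among the receptor chains of IL2 and IL15, 2 peaks were called more accessible in S+P C5 than in N+P C5, and 3 were called in no comparison. Il15ra -12072 lies between protein-coding genes at the end of Il2ra, overlaps the last exon of Il2ra, and was assigned to Il15ra because that start is the nearest. Which gene it acts on was not measured. Its normalized count was 19.3, 20.7 and 71.9 in Naive, 21.0, 11.2 and 22.6 in N+P C1, and 24.1, 43.9 and 39.7 in N+P C5. It was 299.95, 314, 111 and 152 in Sensitized, 157, 67.5, 66.5 and 48.2 in S+P C4, whereas S+P C5 had 437, 474, 361 and 274 and S+P C7 had 367, 269, 285 and 136. All libraries of mice without a graft lay below all Sensitized, S+P C5 and S+P C7 libraries, and Naive replicate 3 was the highest of the former. The S+P C5 list was the only deposited list that held the peak.

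Il15ra -12072 opened from Naive to Sensitized by a log2 fold change of 2.52 (SE 0.47, 95% interval 1.60 to 3.44, adjusted p = 2.1e-06). It was more accessible in S+P C5 than in N+P C5 by 3.44 (SE 0.47, adjusted p = 1.3e-11), a 10.8-fold difference of means fitted from 35.9 ± 10.4 (SD, n = 3) to 387 ± 88.7 (SD, n = 4). Within S+P mice, C5 exceeded C4 by 2.24 (SE 0.43, adjusted p = 1.1e-05) and in 4 of 4 replicate numbers. With a normalization that bends each library to the mean count (loess offsets), these 3 values were 1.05, 1.24 and 1.39, still calls. S+P C4 was lower than Sensitized by -1.42 (SE 0.43, adjusted p = 0.037) with overlapping groups, and this call was lost without Sensitized replicate 2 (-1.19, adjusted p = 0.20), without S+P C4 replicate 3 (-1.32, adjusted p = 0.13) and without S+P C4 replicate 4 (-1.21, adjusted p = 0.20). S+P C5 and Sensitized differed by 0.82 (95% interval 0.00 to 1.64, adjusted p = 0.13). This difference became a call without Sensitized replicate 1 (1.01, adjusted p = 0.053) or Sensitized replicate 2 (1.04, adjusted p = 0.085). It was also a call with the replicate number as a block (0.91, adjusted p = 0.0012), but the numbers do not pair Sensitized with S+P libraries. It was 0.34 (adjusted p = 0.75) without Sensitized replicates 3 and 4, and -0.07 (adjusted p = 0.91) with loess offsets.

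Il2rb +16029, the only peak of the gene for the chain that IL2 and IL15 receptors share, is a promoter peak. It lies at the start of an Il2rb transcript that begins inside the annotated gene body. Its normalized count was 427, 457 and 375 in Naive, 304, 312 and 341 in N+P C1, 350.1, 289 and 411 in N+P C5, and 693, 465, 394 and 368 in Sensitized. It was 534, 510.2, 703 and 636 in S+P C4, whereas S+P C5 had 701, 744, 619.6 and 702 and S+P C7 had 750.2, 720.1, 689 and 833. Every S+P library exceeded every library of Naive and N+P mice, and Sensitized replicate 1 reached the S+P range while the other Sensitized libraries did not. S+P C5 exceeded N+P C5 by 0.98 (SE 0.18, adjusted p = 3.4e-07), and by 0.86 without N+P C5 replicate 2, short of the fold threshold. Against Sensitized, S+P C5 was higher by 0.53 (SE 0.16, adjusted p = 0.0090) and S+P C7 by 0.64 (SE 0.16, adjusted p = 3.9e-04). Without Sensitized replicates 3 and 4 these were 0.25 (adjusted p = 0.39) and 0.37 (adjusted p = 0.091).

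Neither Il2ra peak was called in any comparison. The intronic peak Il2ra +10678 was among the most accessible members, with 781, 689 and 956 in Naive, 818, 1032 and 932 in N+P C5, 828, 807, 802 and 835 in Sensitized, and 722, 710.2, 673 and 737 in S+P C5. Group means differed at most 1.31-fold, and S+P C5 was lower than N+P C5 by -0.38 (SE 0.13, adjusted p = 0.0094). The Il2ra promoter peak, Il2ra -216, had group means between 275 and 461 and was higher in S+P C5 than in N+P C5 by 0.41 (SE 0.21, adjusted p = 0.084). The promoter peak of Il15ra, Il15ra +452, had group means between 209 and 247, all neighbouring groups in that order overlapped, and its 95% intervals ran from -0.42 to 0.55 over the 11 comparisons.

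**Figure D3:**
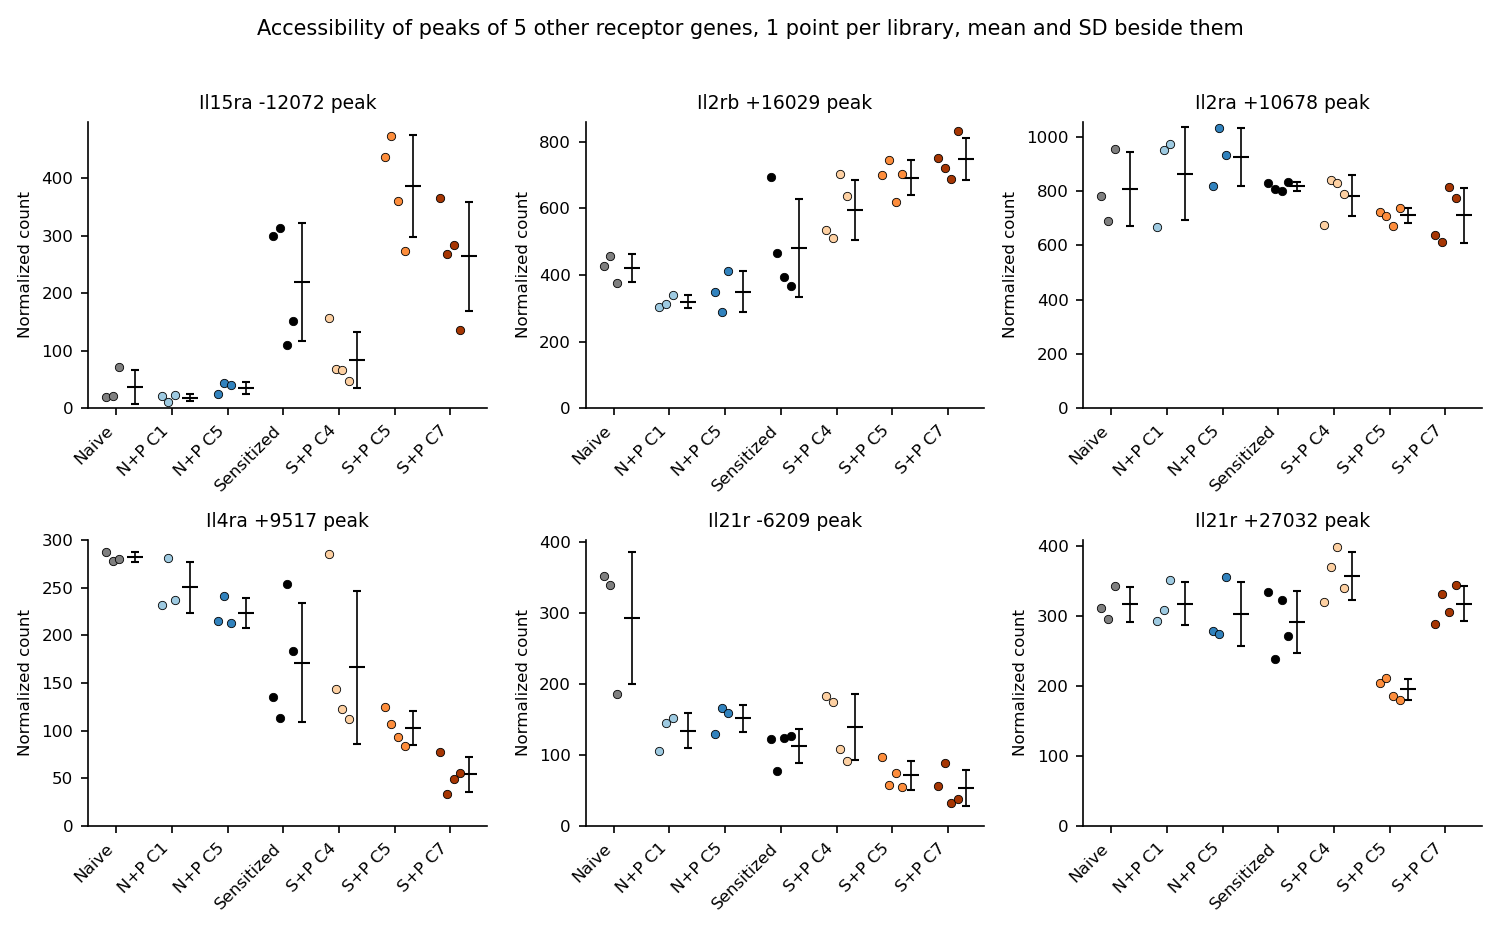
Normalized count (vertical axes, from 0) per library of 6 peaks at the other receptor genes in the 7 groups (horizontal axes); points are libraries and the bar beside them is the mean ± SD. Il15ra -12072 and Il2rb +16029 are highest in S+P C5 and S+P C7, Il4ra +9517 and Il21r -6209 are highest in Naive, and Il21r +27032 is lowest in S+P C5, between 181 and 211.

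At Il4ra, the specific chain of the IL4 receptor, the only called peak was intronic. Il4ra +9517 measured 288, 278 and 281 in Naive, 232, 281 and 237 in N+P C1, and 215, 241 and 213 in N+P C5. It measured 135, 113, 254 and 184 in Sensitized, 286, 144, 123 and 113 in S+P C4, whereas S+P C5 had 125, 107, 93.3 and 84.3 and S+P C7 had 78.2, 34.0, 49.7 and 55.3. Every S+P C7 library lay below every other library of the series, and S+P C4 replicate 1, the shallowest library, stood at the Naive level. The peak closed from Sensitized to S+P C7 by -1.63 (SE 0.28, 95% interval -2.19 to -1.08, adjusted p = 2.2e-07), and was lower in S+P C5 than in N+P C5 by -1.12 (SE 0.30, adjusted p = 6.0e-04). With loess offsets the latter was -2.14. S+P C5 differed from Sensitized by -0.74 (adjusted p = 0.033), and by -0.27 (adjusted p = 0.67) without Sensitized replicates 3 and 4.

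From S+P C5 to S+P C7, Il4ra +9517 changed by -0.89 (SE 0.29, adjusted p = 0.038) and was lower in 4 of 4 replicate numbers, and with the replicate number as a block it was called (-0.91, adjusted p = 0.0043), which raised the members called there from 1 to 2. It was also called there when S+P C7 replicate 1 (-1.12), S+P C5 replicate 3 (-0.94) or S+P C5 replicate 4 (-0.98) was left out. Sensitized was lower than Naive by -0.72 (SE 0.29, adjusted p = 0.072), and by -0.97 without Sensitized replicate 3 and -1.19 without Sensitized replicates 3 and 4 together, which would be calls. The promoter peak Il4ra +207 had group means between 463 and 511 and had 95% intervals from -0.41 to 0.49 over the 11 comparisons. Il4ra +29478, in the last exon, stood in every peak list and was not called. It had 1673, 1599.8, 1116 and 1039 in Sensitized, 772, 939.8, 1184 and 791 in S+P C5, and 662, 953, 1241 and 838 in S+P C7, lower by -0.56 in each (adjusted p = 0.037 and 0.022).

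Il21r, the specific chain of the IL21 receptor, had 7 peaks and 2 unlike patterns among them. Il21r -6209 measured 353, 340.3 and 185 in Naive, 106, 145 and 153 in N+P C1, 129.8, 166 and 159.9 in N+P C5, and 123, 77.7, 124 and 127 in Sensitized. It measured 184, 175, 109 and 91.3 in S+P C4, whereas S+P C5 had 98.0, 58.2, 74.8 and 54.5 and S+P C7 had 57.0, 88.5, 33.1 and 37.5. Every Naive library lay above every other library, with Naive replicate 3 far below the other 2. Sensitized was lower than Naive by -1.37 (SE 0.32, adjusted p = 2.7e-04), S+P C7 lower than Sensitized by -1.09 (SE 0.31, adjusted p = 0.0020), and S+P C5 lower than N+P C5 by -1.07 (SE 0.33, adjusted p = 0.0031). With loess offsets these values were -2.35, -2.01 and -2.84. S+P C5 was lower than S+P C4 by -0.93 (SE 0.31, adjusted p = 0.029) with overlapping groups, in 4 of 4 replicate numbers. That call was lost without S+P C4 replicate 1 (-0.79, adjusted p = 0.12), S+P C4 replicate 2 (-0.78, adjusted p = 0.15), S+P C5 replicate 2 (-0.85, adjusted p = 0.11) or S+P C5 replicate 4 (-0.82, adjusted p = 0.11).

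Il21r +27032, in an intron, was low in the PD1+CD73+ cells of S+P mice. It measured 335, 239, 323 and 272 in Sensitized, 319.8, 371, 399 and 341 in S+P C4, whereas S+P C5 had 204, 211, 186 and 181 and S+P C7 had 289, 332, 307 and 345. It measured 311, 296 and 344 in Naive, 293, 309.5 and 352 in N+P C1, and 279, 274 and 356 in N+P C5. Every S+P C5 library lay below every other library of the series. S+P C5 was lower than S+P C4 by -0.88 (SE 0.13, adjusted p = 2.3e-09), just short of the fold threshold, and would be called without S+P C4 replicate 1 (-0.92), S+P C4 replicate 4 (-0.913), S+P C5 replicate 1 (-0.912) or S+P C5 replicate 2 (-0.914). S+P C7 was higher than S+P C5 by 0.71 (SE 0.13, adjusted p = 1.1e-05) in 4 of 4 replicate numbers, and S+P C5 was lower than Sensitized by -0.59 (SE 0.12, adjusted p = 9.0e-05).

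The other Il21r peaks changed less. Il21r -14630 was lower than in Sensitized by -0.55 in S+P C5 (adjusted p = 4.3e-05) and by -0.64 in S+P C7 (adjusted p = 7.1e-07), with 675, 574, 651 and 598 in Sensitized and no value above 485 in either S+P subset. Il21r +32349, beyond the end of the gene, held 788, 727, 732 and 622 in Sensitized and 579, 519, 602 and 574 in S+P C5, lower by -0.33 (SE 0.09, adjusted p = 0.0018). The promoter peak Il21r -48 had group means from 228 to 407, and was higher in S+P C5 than in N+P C5 by 0.67 (SE 0.25, adjusted p = 0.015). Il21r +4421 and Il21r +35464 did not pass adjusted p in any comparison.

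**Figure D4:**
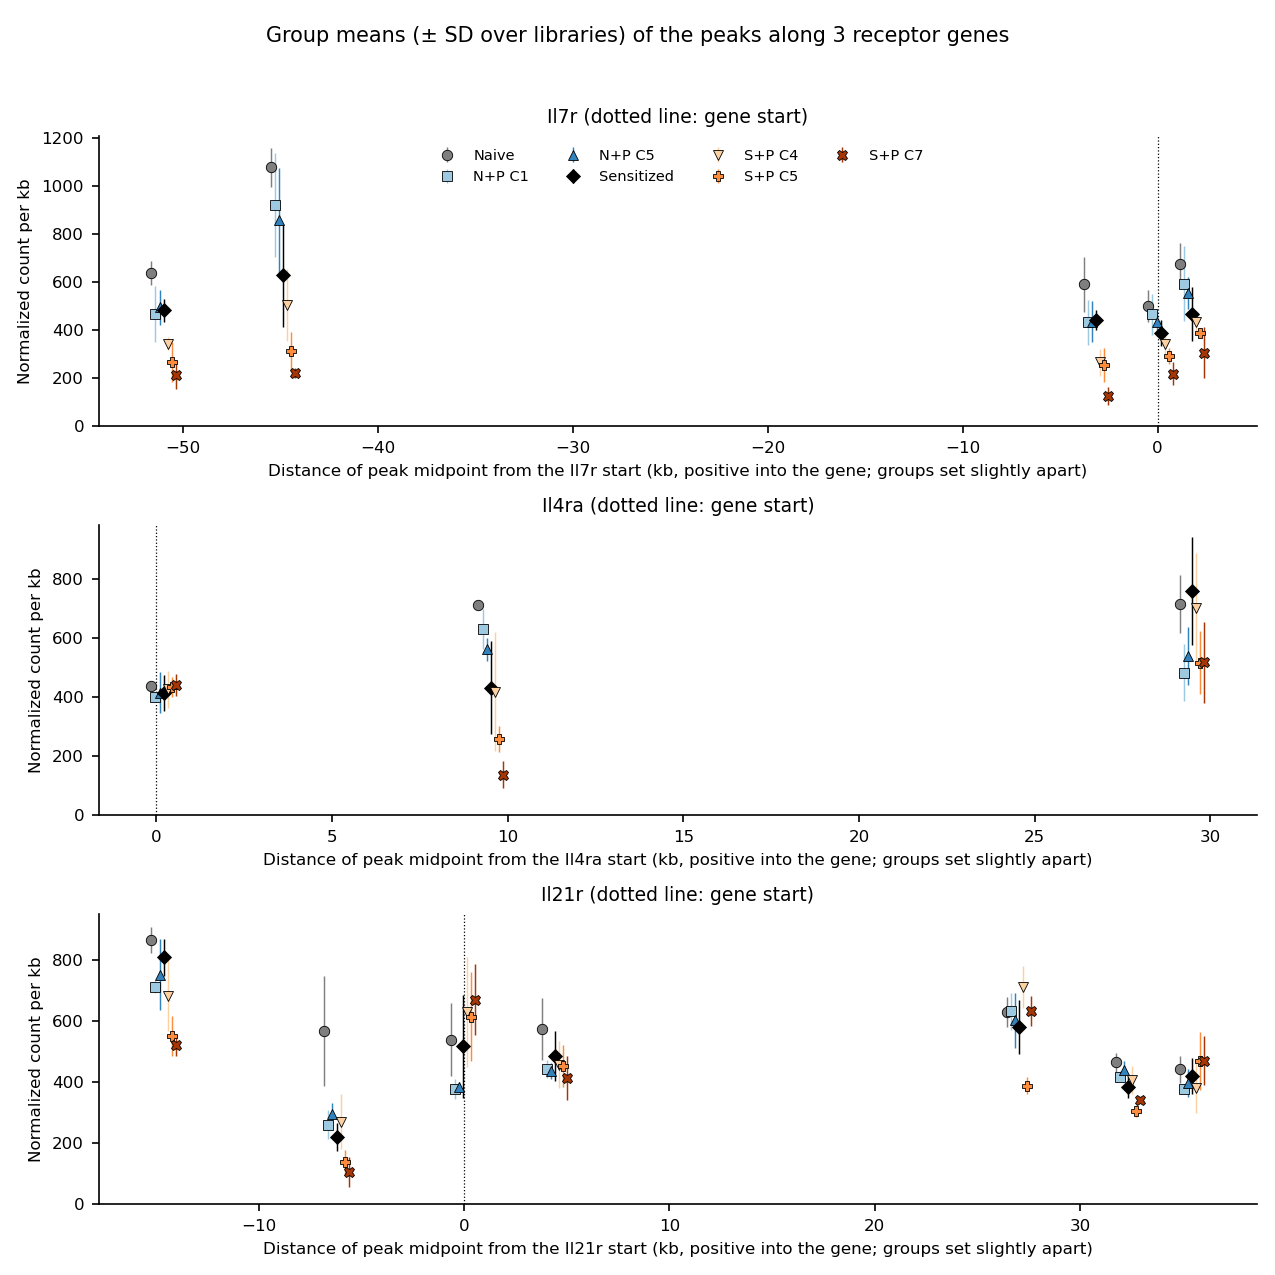
Mean normalized count per kb of peak (vertical axes, from 0, ± SD over libraries) of each group at the peaks of Il7r, Il4ra and Il21r, placed by the distance of the peak midpoint from the gene start in kb (horizontal axes). The groups spread most at Il7r -44863, Il7r -3162, Il4ra +9517 and Il21r -6209, and least at the Il4ra start.

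Between Naive and the 2 subsets of mice with a pregnancy but no graft, no member peak was called in the main fit. N+P C1 and N+P C5 called 0 members against Naive (0.00739% of all peaks each), but the filter of the test on mean counts left an adjusted p for only 5 and 4 of the 20 members. Over all peaks it left one for 4873 and 3824 of 13527. With the filter off, N+P C1 called 1 member and 39 peaks, and N+P C5 called 0 members and 24 peaks. At an unadjusted p under 0.05 there were 6 and 2 members, and 2571 and 2361 of all 13527 peaks. By edgeR 0 members were called in each. In each comparison 18 of 20 members had a fold change below 0, and the comparisons share the Naive libraries. The median log2 fold change was -0.25 and -0.27 over the members and -0.02 and 0.00 over all peaks. Il21r -6209 had the smallest p in both, at -1.12 (SE 0.34, unadjusted p = 0.0011) and -0.94 (SE 0.34, unadjusted p = 0.0057). In a fit of the compared groups only, these would be calls, at -1.11 (adjusted p = 0.0020) and -0.95 (adjusted p = 0.0076), and without Naive replicate 3 the second would be one, at -1.19 (adjusted p = 0.016). The fit of the compared groups only called 83 and 65 of all peaks, and 7 members passed adjusted p in each. Without Naive replicate 3, 160 and 157 peaks were called and 4 members passed in each. The peaks called were 0 and 0 without Naive replicate 1, and 0 and 1 without Naive replicate 2. N+P C5 and N+P C1 differed in 0 members, with 0 at an unadjusted p under 0.05, 0 by edgeR and 0% of all peaks called.

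Whether pregnancy was linked to a different change of C5 cells in sensitized than in naive mice was tested as the difference of the log2 changes (S+P C5 over Sensitized, less N+P C5 over Naive). None of the 20 members was called (5.97% of all peaks), and 2 passed adjusted p under 0.1 (31.2%). Il2rb +16029 changed by 0.53 in sensitized and -0.26 in naive mice, a difference of 0.78 (SE 0.25, adjusted p = 0.019), which was 1.02 without Sensitized replicate 1 and 0.91 without N+P C5 replicate 3. Il21r +27032 changed by -0.59 and -0.07, a difference of -0.52 (SE 0.19, adjusted p = 0.043). Both lost adjusted p without Sensitized replicates 3 and 4, at 0.51 and -0.49 (adjusted p = 0.17 each). With the replicate number as a block they also lost it, at 0.68 (adjusted p = 0.13) and -0.50 (adjusted p = 0.19). That block decides nothing here, because the numbers do not pair Naive or Sensitized with post-partum libraries. It also used only the replicate numbers that all compared groups share. Il21r -48 differed by 0.73 (SE 0.35, adjusted p = 0.11), and by 0.96 (adjusted p = 0.013) without Sensitized replicate 1 and 0.90 (adjusted p = 0.035) without Naive replicate 3. For Il7r -3162 and Il7r -44863 the differences were not past the threshold, at -0.34 (95% interval -0.99 to 0.30) and -0.68 (95% interval -1.39 to 0.03).

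For the leading peak of each gene, the peaks on other chromosomes with the most similar levels over the 25 libraries were found by Pearson's r of log2 normalized counts, a description over libraries that share groups and depth. Il7r -3162 was most like peaks nearest Btg1 (r = 0.956), Hnrnpa3 (0.95) and Sae1 (0.948), and Il4ra +9517 was most like peaks nearest Tnfaip3, Ube2d2b and Art4 (0.970 to 0.971). Il15ra -12072 was most like peaks nearest Tnfsf18 (0.962), Tent5c (0.954) and Baz1a (0.95), and Il2rb +16029 most like peaks nearest Qprt (0.967), Gm69672 (0.963) and Uaca (0.958). Il21r -6209 was most like an intronic peak of Ets1 (0.942), and peaks nearest Slc44a2 and Atp6v1e1 (0.925 each). Il2ra +10678, which was called in no comparison, had weaker likenesses, to peaks nearest Msn (0.810), Cd96 (0.793) and Cd226 (0.787).

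Around the receptors, 32 further genes of the pathway were listed by role, and 26 of them had peaks, 108 in all. The other ligands and chains were sparse: Il4, Il7, Il15 and Tslp had 0 peaks and Il2rg, the shared gamma chain, had 1 at its start, which was not called, with a smallest adjusted p of 0.28 (-0.23, S+P C5 over S+P C4). From Sensitized to S+P C7, 3 of the 108 opened and 10 closed, where 3.84% and 8.03% of all peaks did. From N+P C5 to S+P C5, 16 opened and 4 closed, where 10.3% and 6.97% of all peaks did. The single peaks of the ligand genes Il9 and Il21 both closed from Sensitized to S+P C7, by -2.27 (SE 0.21, adjusted p = 3.5e-24) and -1.38 (SE 0.17, adjusted p = 4.6e-14). Among targets of the receptors, an intronic peak of Bcl2, which encodes a survival factor, fell from 371 ± 82.5 in Sensitized to 144 ± 22.3 in S+P C7 (SD, n = 4 each), -1.37 (SE 0.19, adjusted p = 2.7e-11). Among inhibitors, a peak whose nearest gene start is Socs1 fell from 388 ± 6.30 in S+P C5 to 117 ± 36.6 in S+P C7 (SD, n = 4 each), -1.73 (SE 0.26, adjusted p = 2.7e-08).

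Among the transducers, 27 peaks, an intronic peak of Stat3 was more accessible in S+P C5 than in N+P C5 by 2.78 (SE 0.42, adjusted p = 6.0e-10), a call that was lost with loess offsets. Among 49 peaks of factors that regulate Il7r, 10 were more and 1 less accessible in S+P C5 than in N+P C5, against the same 10.3% and 6.97% of all peaks. A peak upstream of Runx1 rose by 3.15 (SE 0.45, adjusted p = 4.2e-11) in that comparison, from 31.0 ± 3.15 (SD, n = 3) to 276 ± 36.5 (SD, n = 4), and an intronic peak of Ets1 fell by 0.96 on the log2 scale from Sensitized to S+P C7 (SE 0.10, adjusted p = 4.5e-20).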

How the data were processed

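The data are ATAC-seq libraries of sorted T_FGS. The authors trimmed reads with cutadapt 3.4, aligned them to GRCm39 (mm39) with Bowtie2 2.2.9, removed PCR duplicates (Picard 2.21.8) and reads without a unique position, called peaks per library with Genrich 0.6.1, kept peaks that recurred within a group with ChIP-R, merged the lists with bedtools 2.27.1 and counted reads with deepTools. Reads were cut into peaks found in these same groups, so that a site open in few libraries may be missing from the table. The deposited table holds raw counts per peak and library. The deposited lists, 1 per group, carry a score and a signal value and a p-value and q-value per peak, with no replicate error, and only the positions and scores were read here.

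Peaks were assigned to genes with GENCODE vM39, and 0 columns of the table were left unused. Counts were tested with DESeq2 1.42.0 (R 4.3.3) with the thresholds of the study's methods, which name the tool but not its settings. The settings chosen here were 1 fit of all 25 libraries by group, median-of-ratios size factors, Wald tests and unshrunken fold changes. The dispersion trend was fitted with the tool's default setting. Benjamini-Hochberg adjustment ran over all peaks that passed the tool's filter on mean counts. A peak was called at adjusted p under 0.1 and a log2 fold change over 0.9. The code was tested on simulated data. Alternatives were edgeR 4.0.16, size factors from total counts, loess offsets, no independent filter, a filter of 10 counts in 20 libraries, the compared groups alone, adjusted p under 0.05, a replicate block, and each library left out. The labels do not say that each library is 1 animal, so p-values measure the spread between these libraries. The members, lists and tests were chosen with earlier results of these data known. Named for each gene were its promoter peak, its called peaks (at most 4) and, where none was called, the peak of smallest p. Other members were named after their values were seen.

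The replicate numbers were checked by the correlation of same-numbered libraries' deviations from group means. It was 0.108 to 0.400 between N+P C1 and C5, 0.103 to 0.572 between S+P C4 and C5, 0.522 to 0.771 between S+P C5 and C7, and 0.0639 to 0.666 between S+P C4 and C7, which were not compared. In the same order, 3 of 3, 2 of 4, 4 of 4 and 3 of 4 pairs correlated best with their own number. Libraries with different numbers correlated at most at 0.0270, 0.440, 0.137 and 0.252, again in the same order. The numbers were taken as pairs because the column names imply it. The correlations do not settle this for S+P C4 and C5, where 0.440 exceeded the lowest same-numbered value. The main fit did not use the pairs. No replicates held the same counts within sampling noise.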

Additional observations from a re-analysis of the deposited data

Results flagged for a closer look

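In 5 of the 80 sets of 4 libraries tested (Dixon's test at the 95% level, which chance passes in about 1 of 20 sets), 1 library stood apart at a member peak. Il15ra +452 was low in Sensitized replicate 2 (normalized count 154), Il4ra +207 was high in Sensitized replicate 1 (587), Il21r -6209 was low in Sensitized replicate 2 (77.7), Il21r -48 was high in S+P C5 replicate 2 (505), and Il7r +1764 was high in S+P C4 replicate 2 (527).

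The change from graft or no graft alone to post-partum C5 cells differed between sensitized and naive mice at 2 of 20 members by the interaction test (adjusted p under 0.1), where 31.2% of all peaks passed. The difference was 0.78 on the log2 scale at Il2rb +16029 and -0.52 at Il21r +27032, and 0 members passed without Sensitized replicates 3 and 4. With the replicate number as a block 0 members passed too, but the numbers do not pair Naive or Sensitized with post-partum libraries.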

How the results depend on the processing

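Of the 55 member changes at adjusted p under 0.1 over the 11 comparisons, 0 changed direction under any alternative run, while 17 missed adjusted p with some 1 library left out, and 10 of the 31 that involve Sensitized missed it without Sensitized replicates 3 and 4. Of the 165 other changes, 65 changed direction under some alternative, among them Il15ra -12072 from Sensitized to S+P C7 (0.27, and -0.67 with loess offsets). Among the values of the 55 changes by setting, 855 stayed on their side of the call threshold, 32 passed it newly and 15 fell short of it, and among the other 165 changes 12 values, of 5 changes, were newly called. Members called between Sensitized and Naive numbered 2, and 4 without Sensitized replicates 3 and 4 together. From Sensitized to S+P C5, 1 became 3 with loess offsets and 0 without those 2 libraries. From Sensitized to S+P C4, 1 became 0 in the compared groups alone. Between S+P C5 and S+P C4, 2 became 4 with loess offsets, and between S+P C7 and S+P C5, 1 became 2 with total counts or loess offsets. N+P C1 against Naive called 1 without the independent filter, and both N+P subsets called 1 against Naive in the compared groups alone. The causes were not tested. Loess offsets also moved Il21r -6209 between S+P C5 and S+P C4 from -0.93 to -1.59.

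With the replicate number as a block, N+P C1 and N+P C5 against Naive called 1 each, S+P C5 against Sensitized 2, and S+P C7 against S+P C5 2, and the counts of the other comparisons stayed within 1.5 times. The numbers do not pair Naive or Sensitized with post-partum libraries.

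With 1 library left out in turn, the members called ran from 2 to 3 (Sensitized over Naive), 0 to 0 (N+P C1 over Naive), 0 to 1 (N+P C5 over Naive), 0 to 1 (S+P C4 over Sensitized), 0 to 3 (S+P C5 over Sensitized), 5 to 6 (S+P C7 over Sensitized), 4 to 7 (S+P C5 over N+P C5), 1 to 3 (S+P C5 over S+P C4), 0 to 2 (S+P C7 over S+P C5), 0 to 0 (N+P C5 over N+P C1) and 0 to 2 (difference of the C5 changes). With 2 to 4 libraries a group, fold changes near 0.9 could not be placed on either side with certainty.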
